A study of Homo sapiens with 17 samples.

Results

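The tumor necrosis factor (TNF) superfamily ligands are a family of cytokines, and 9 of their genes were followed through an mRNA-seq experiment on SW480 cells. The genes were LTA, TNF, LTB, TNFSF9, TNFSF10, TNFSF12, TNFSF13, TNFSF14 and TNFSF15, found by symbol among the 26457 RefSeq genes of the deposited table. SW480, a line derived from a human colon cancer, expresses a missense mutant of p53 (mutp53). The groups were control cells, with a stable inducible shRNA against LacZ, and mutp53-depleted cells, with a stable inducible shRNA against p53, each untreated (0 h) or given 12.5 ng/ml TNF-α for 16 h. Both lines were kept in puromycin and induced with doxycycline, so these agents were common to all 4 groups. Each shRNA was represented by a single stable line, and differences between the lines and effects of the shRNA cannot be told apart. Of 2 biological replicates per group, the libraries are named A and B after the deposited columns. The TNF-α given was protein and is itself a member of the family studied, so the TNF values below are mRNA made by the cells.

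Ligands of this family are made as trimers, mostly anchored in the cell membrane, and some are cut loose to act at a distance. They bind receptors of the TNF receptor superfamily, many of which signal to the transcription factor NF-κB, and others of which signal to cell death. TNF-α itself is a classical inducer of NF-κB, and the genes of several ligands and of feedback inhibitors are known NF-κB targets. Leucocytes are the best known source of lymphotoxins and TNF, and epithelial tumor cells can make them as well.

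The expression values were reads on exons that the authors scaled to an equal total in every library, called normalized reads below. A single read equalled between 0.67 and 1.515 normalized reads, and the libraries held 6108488 to 13809578 reads on genes, the A library being the deeper in each group. SW480 cells are epithelial, and the summed level of EPCAM, KRT8, KRT18, KRT19 and CDH1 lay between 42212 and 69182 normalized reads per library. Among them CDH1, which encodes E-cadherin, fell with TNF-α in both lines (log2 -2.51 and -2.15), and EPCAM was lower in mutp53-depleted cells at both times (log2 -1.29 and -1.06). The leucocyte genes PTPRC, CD3D and MS4A1 were at 0 in all 8 libraries. All 9 leucocyte markers together reached 43.9 to 56.6 normalized reads in control cells at 0 h, 65.4 to 80.2 in control cells at 16 h, 55.6 to 64.4 in mutp53-depleted cells at 0 h and 105 to 111 in mutp53-depleted cells at 16 h. Of the 3 leucocyte markers with enough reads to test, ITGAM rose with TNF-α in both lines and CD68 in control cells, and CD14 fell in control cells. CD68 was also called higher in mutp53-depleted cells at 0 h, with 38.9 and 49.4 normalized reads against 18.9 and 21.2 in control cells. ITGAM went from 0 and 0 to 22.2 and 11.4 normalized reads in control cells, and from 2.01 and 0 to 27.7 and 25.9 in mutp53-depleted cells. The part of these markers in the ligand values was not tested, and in bulk RNA fewer cells making a transcript and less transcript per cell cannot be told apart.

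Of the 9 ligand genes, 3 lie side by side in the major histocompatibility complex. In hg19, the build of the deposited coordinates, LTA (NM_001159740) spans chr6:31539876-31542100 and TNF (NM_000594) spans chr6:31543344-31546112, both on the plus strand. LTB (NM_002341) spans chr6:31548336-31550202 on the minus strand, so that its end faces the end of TNF. The gap between LTA and TNF is 1244 bases and that between TNF and LTB is 2224 bases. TNFSF9 (NM_003811, chr19:6531010-6535939, plus strand) and TNFSF14 (NM_003807, chr19:6663148-6670599, minus strand) flank CD70, a further ligand gene of the family. TNFSF12 (NR_037146, chr17:7452375-7461207) and TNFSF13 (NM_003808, chr17:7461609-7464925) follow each other 402 bases apart on the plus strand. TNFSF10 (NM_003810, chr3:172223298-172241297) and TNFSF15 (NM_001204344, chr9:117546915-117554810) lie on the minus strand with no other ligand gene of the 9 on their chromosomes.

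The stretches just upstream of the chromosome 6 ligands and of TNFSF10 are shown because these genes had the largest responses below. RefSeq (GRCh38.p14) lists windows for 8 of the 9 ligands, all but TNFSF12. The 250 bases before the start site are printed 5′ to 3′ on the strand of the gene. Capitals mark matches to the κB consensus, the site known to bind NF-κB dimers, or to TATAAA, the core of a TATA box. LTA and LTB each have more than 1 listed start, and both windows of LTA and the first of LTB are given.
LTA, first window, chr6:31571849-31572098, plus strand: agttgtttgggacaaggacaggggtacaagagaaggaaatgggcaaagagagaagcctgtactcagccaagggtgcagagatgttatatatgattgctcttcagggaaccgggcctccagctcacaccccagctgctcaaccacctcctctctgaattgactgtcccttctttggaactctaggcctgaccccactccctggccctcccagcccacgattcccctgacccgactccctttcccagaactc
LTA, second window, chr6:31572039-31572288, plus strand: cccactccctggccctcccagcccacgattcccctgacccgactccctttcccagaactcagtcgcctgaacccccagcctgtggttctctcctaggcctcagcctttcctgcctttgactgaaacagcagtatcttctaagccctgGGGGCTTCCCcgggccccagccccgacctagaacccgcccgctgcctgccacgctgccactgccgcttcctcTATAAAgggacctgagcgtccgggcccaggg
TNF, chr6:31575315-31575564, plus strand: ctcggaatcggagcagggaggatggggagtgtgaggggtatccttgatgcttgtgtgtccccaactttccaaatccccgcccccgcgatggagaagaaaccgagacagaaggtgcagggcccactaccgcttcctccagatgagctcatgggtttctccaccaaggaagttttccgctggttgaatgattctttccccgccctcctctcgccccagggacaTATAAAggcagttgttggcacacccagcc
LTB, first window, chr6:31582426-31582675, minus strand: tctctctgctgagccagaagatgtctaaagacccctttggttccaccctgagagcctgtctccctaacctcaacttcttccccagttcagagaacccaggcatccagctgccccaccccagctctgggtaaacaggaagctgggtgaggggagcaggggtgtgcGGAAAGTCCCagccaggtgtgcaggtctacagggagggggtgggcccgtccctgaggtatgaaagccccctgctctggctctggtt
TNFSF10, chr3:172523431-172523680, minus strand: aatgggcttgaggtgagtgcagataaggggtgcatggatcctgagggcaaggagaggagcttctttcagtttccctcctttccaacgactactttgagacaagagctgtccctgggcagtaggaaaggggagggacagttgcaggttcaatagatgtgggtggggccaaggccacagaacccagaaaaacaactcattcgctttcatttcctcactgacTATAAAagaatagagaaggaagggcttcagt

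The second LTA window held a κB match, GGGGCTTCCC, that began 103 bases before the start site, and a TATAAA that began 31 bases before it. The TNF window held TATAAA 29 bases before the start and no κB match. The LTB window held a κB match on the opposite strand, printed here as GGAAAGTCCC on the strand of the gene, 86 bases before the start, and no TATAAA. TNFSF10 held TATAAA 31 bases before the start and no κB match. Among the ligands whose windows are not printed, TNFSF13 (second window only) and TNFSF14 also held a κB match, and TNFSF9 held TATAAA. TNFSF13 was called in no contrast below, and TNFSF14 was too low to test. Both strands were searched, also for the AP-1 motif TGANTCA, which was found among the ligands in TNFSF14 and TNFSF15 only, and matches of different motifs did not overlap in the ligand windows. Across the first listed windows of all genes, 27305 in number, 5.05% held the κB consensus, 11.1% TATAAA and 6.6% TGANTCA. Every listed window of a ligand was searched, so these shares are not matched to the ligands with several windows. By the first window alone LTA had no match. A match describes letters in a window and not binding, and a window without a match says nothing of more distant sites.

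Differences were tested on log2(normalized reads + 1) with limma, in 1 model with a mean for each of the 4 groups, and 14800 genes whose mean reached 2.5 normalized reads entered it. Calls required an adjusted p (Benjamini-Hochberg, over all 14800) under 0.05 together with a change of 2-fold or more, and adjusted p-values below are from this test unless another is named. Of the 9 ligands, 8 passed the filter on low values and TNFSF14 did not. The added 1 draws the log2 fold changes of weakly expressed genes towards 0, so ratios of pooled reads with exact 95% counting intervals are given for them as well. Those intervals cover counting error only, and the p-values rest on 2 libraries per group.

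The first question was which ligand genes respond to 16 h of TNF-α in cells that keep mutp53. LTB, TNF and LTA went from almost no reads to abundant, intermediate and modest levels, in that order, and TNFSF10 rose by 1.01 on the log2 scale. Of the 8 ligands tested, 4 were called higher and 0 lower, where 2.97% and 4.27% of all genes tested were called. At an unadjusted p under 0.05, 1 ligand was lower (TNFSF9), and edgeR and DESeq2 called 0 lower as well. The 3 genes on chromosome 6 had a median log2 fold change of 6.71 and the 5 tested ligands elsewhere one of -0.33, against -0.05 for all genes tested.

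LTB encodes lymphotoxin β, which tethers lymphotoxin α in the membrane as a heterotrimer that binds the lymphotoxin β receptor. In control cells LTB had 4.35 and 0 normalized reads at 0 h and 2791 and 2374 at 16 h. The 2 groups lay far apart, with 6 reads in all before TNF-α and 4556 after it. On the log2 scale LTB rose by 10.12 (SE 0.52, n = 2, adjusted p = 6.03e-11), place 1 of the 14800 genes ordered by their log2 change in this model. The ratio of pooled reads was 891, with a counting interval of 409 to 2429.

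TNF encodes TNF-α, the cytokine that was also supplied. In control cells TNF had 0.73 and 0 normalized reads at 0 h, a single read in both libraries together, and 152 and 124 at 16 h. The log2 rise was 6.71 (SE 0.45, n = 2, adjusted p = 1.93e-09), place 9 of the genes tested. The ratio of pooled reads was 286, with an interval of 50.9 to 11350 that reflects the 1 read at 0 h. LTA, which encodes the secreted lymphotoxin α, had 0.73 and 0 normalized reads at 0 h and 46.4 and 22.8 at 16 h. Its libraries at 16 h differed from each other by about as much as the lower of them, yet both lay well above 0 h. LTA rose by 4.67 on the log2 scale (SE 0.60, n = 2, adjusted p = 9.17e-06), and the ratio of pooled reads was 75.1 with an interval of 13.0 to 3011.

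TNFSF10 encodes TRAIL, a ligand that can trigger apoptosis through death receptors. In control cells TNFSF10 had 22.5 and 30.3 normalized reads at 0 h and 50.3 and 56.9 at 16 h. The groups did not overlap, and the log2 rise was 1.01 (SE 0.26, n = 2, adjusted p = 0.00784). This call lay at the edge of the fold threshold, since it was lost with a pseudocount of 5 (log2 0.91), without control 0 h replicate A (log2 0.80, adjusted p = 0.0734) and without control 16 h replicate B (log2 0.92, adjusted p = 0.0587).

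**Figure D1:**
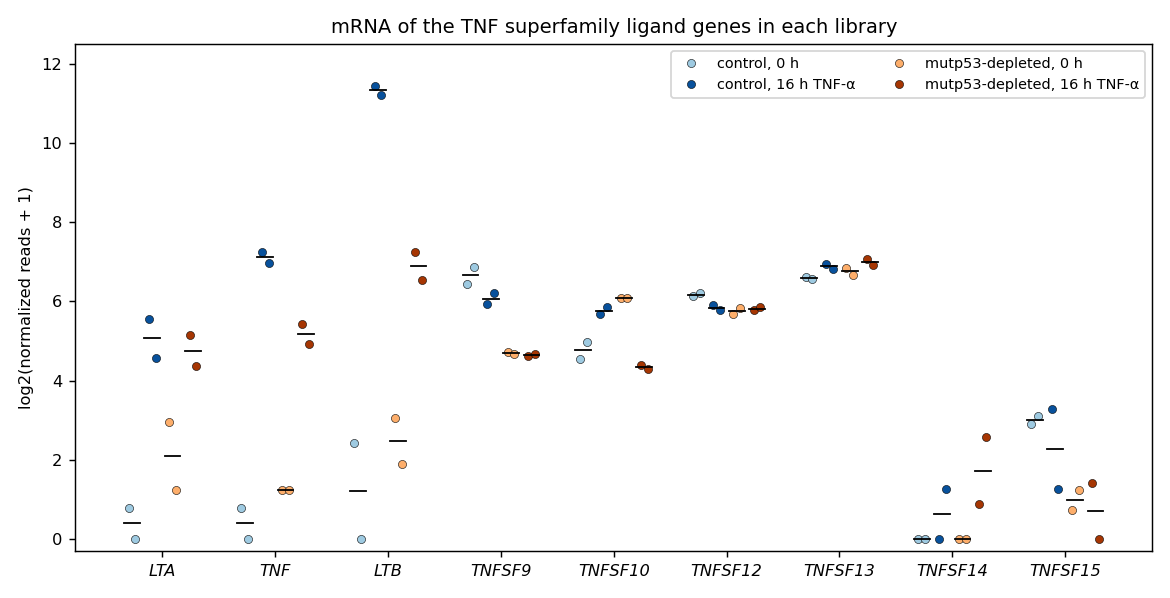
Each point is 1 library, plotted as log2(normalized reads + 1) for the 9 ligand genes in the 4 groups, and the bars are means of 2 libraries on that scale. LTA, TNF and LTB sit near the bottom at 0 h and far higher at 16 h, with LTB in control cells at 16 h above all other points, whereas TNFSF12 and TNFSF13 stay level and TNFSF10 moves up in control cells and down in mutp53-depleted cells.

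The same question was then asked in mutp53-depleted cells. LTA, TNF and LTB rose there too, to lower levels for TNF and LTB, while TNFSF10 fell. Of the 8 ligands, 3 were called higher and 1 lower, against 1.86% and 4.5% of all genes tested. The median log2 fold change was 3.94 for the 3 genes on chromosome 6 and -0.06 for the ligands elsewhere, with -0.06 for all genes tested.

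In mutp53-depleted cells LTB had 7.37 and 2.74 normalized reads at 0 h and 151 and 92.6 at 16 h. TNF had 1.34 and 1.37 at 0 h and 41.9 and 29.6 at 16 h. LTA had 6.70 and 1.37 at 0 h and 34.4 and 19.8 at 16 h. In each of the 3 genes both libraries at 16 h lay above both at 0 h. The log2 rise was 4.41 for LTB (SE 0.52, adjusted p = 4.23e-06), 3.94 for TNF (SE 0.45, adjusted p = 2.63e-06) and 2.66 for LTA (SE 0.60, adjusted p = 0.0027), with n = 2 in each group and limma as above. The ratios of pooled reads were 21.8 (interval 12.5 to 41.4) for LTB, 27.4 (9.0 to 136) for TNF and 5.75 (2.98 to 12.2) for LTA. The LTA call was lost without mutp53-depleted 0 h replicate B (log2 1.81, adjusted p = 0.0622).

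TNFSF10 had 67.0 and 67.2 normalized reads in mutp53-depleted cells at 0 h and 20.1 and 18.5 at 16 h. Both libraries at 16 h were below both at 0 h, and the fall was 1.75 on the log2 scale (SE 0.26, n = 2, adjusted p = 6.44e-05).

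Whether the response to TNF-α differed between the 2 lines was tested by the interaction, which is the log2 response in mutp53-depleted cells less that in control cells. LTB, TNF and TNFSF10 had a lower response in mutp53-depleted cells, and 0 ligands were called higher, at the unadjusted p as well as with edgeR's quasi-likelihood test and DESeq2. These were 3 of the 8 ligands, called on the adjusted p alone, where 2.21% of all genes tested were called lower and 0.655% higher. For LTB the interaction was -5.71 (SE 0.74, adjusted p = 0.00017), the most negative of the 14800 genes. TNFSF10 gave -2.75 (SE 0.37, adjusted p = 0.000252), a rise in one line and a fall in the other. These 2 calls held in each of the 16 alternatives run.

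TNF gave an interaction of -2.77 (SE 0.63, adjusted p = 0.0201), and this call was less firm, being made in only 6 of 16 alternatives. The adjusted p was 0.336 with the edgeR quasi-likelihood test and 0.497 with DESeq2 on the recovered reads, and between 0.0522 and 0.114 when any of 6 of the 8 libraries was left out. It was 0.0589 with no filter and 0.0836 with a pseudocount of 0.1. Those 6 were control 0 h B, both control 16 h libraries, both mutp53-depleted 0 h libraries and mutp53-depleted 16 h B. For LTA the interaction was -2.01 (95% interval -3.79 to -0.22, adjusted p = 0.284), which was not called. The intervals for the other ligands were -0.20 to 1.26 for TNFSF9, -0.24 to 1.00 for TNFSF12, -0.53 to 0.42 for TNFSF13 and -1.91 to 2.81 for TNFSF15.

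**Figure D2:**
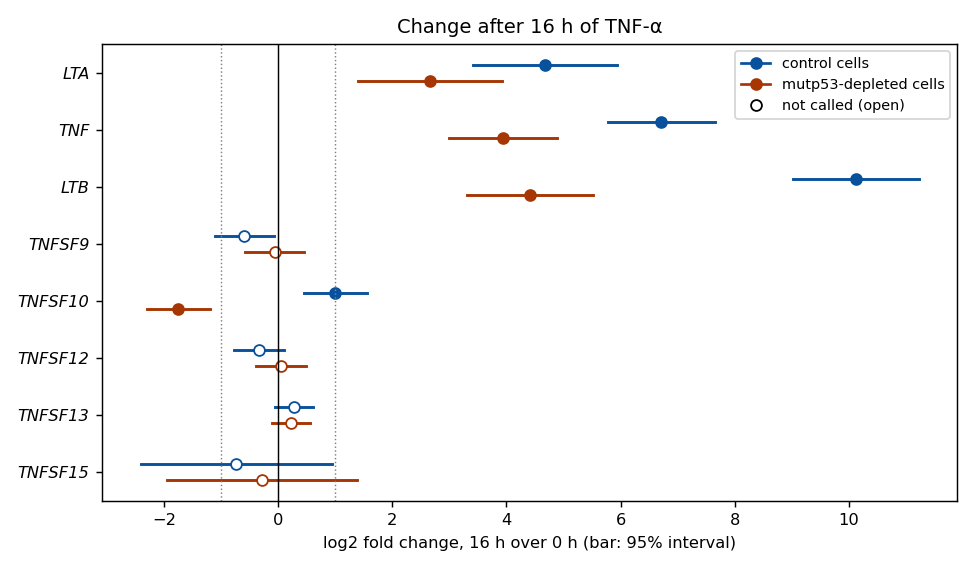
Log2 fold change from 0 h to 16 h of TNF-α for the 8 ligands tested, in control and mutp53-depleted cells, with 95% intervals from limma, filled points for called genes and dotted lines at the 2-fold threshold. The intervals of LTB in the 2 lines (9.02 to 11.22 and 3.32 to 5.51) lie apart, as do those of TNF, whereas those of LTA overlap and TNFSF10 lies on opposite sides of 0.

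The make-up of the chromosome 6 transcripts also differed between the lines at 16 h. Per kilobase of listed length, LTB made up 96.2% and 96.7% of the summed normalized reads of LTA, TNF and LTB in control cells, and 77.5% and 76.6% in mutp53-depleted cells. The level of LTB per kilobase was 33.7 and 35.1 times that of TNF in control cells, and 6.59 and 5.72 times in mutp53-depleted cells. The level of TNF per kilobase was 2.93 and 4.87 times that of LTA in control cells and 1.09 and 1.34 times in mutp53-depleted cells. None of these 3 quantities overlapped between the lines. They are ratios of the 16 h values that are compared between the lines below, so they are not a further difference. LTA had only 16 reads in the B library of each line at 16 h. As a share of reads with no length in it, LTB took 93.4% (exact 95% interval 92.4 to 94.2) and 94.2% (93.0 to 95.2) in control cells, and 66.4% (60 to 72) and 65.2% (55.8 to 73.9) in mutp53-depleted cells. At 0 h the 3 genes together had 8 and 0 reads in control cells and 23 and 4 in mutp53-depleted cells, too few to compare their make-up. LTA was listed in 7 copies and TNF and LTB in 8, as sequences on alternate haplotypes are, and the listed lengths are averages over the copies.

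The next comparison was between mutp53-depleted and control cells at a fixed time. It uses the same 8 libraries as the responses above, so its values are not further evidence for them. At 0 h LTA, LTB and TNFSF10 were called higher and TNFSF9 and TNFSF15 lower in mutp53-depleted cells. These 3 and 2 of 8 ligands stood against 5.89% and 9.55% of all genes tested. The median log2 fold change was 0.50 for the 8 ligands and 0.03 for all genes tested.

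TNFSF9 encodes the ligand of the costimulatory receptor 4-1BB. At 0 h it had 86.4 and 115 normalized reads in control cells and 25.5 and 24.7 in mutp53-depleted cells. The level was thus lower in both depleted libraries, by 1.95 on the log2 scale (SE 0.25, n = 2, adjusted p = 2.57e-06). The call held in all 19 alternatives. TNFSF15 encodes TL1A, the ligand of death receptor 3. It had 6.53 and 7.57 normalized reads in control cells and 0.67 and 1.37 in mutp53-depleted cells, that is 14 reads against 2. Its log2 fold change was -2.01 (SE 0.79, n = 2, adjusted p = 0.0409), and the pooled ratio was 0.131 with a counting interval of 0.0145 to 0.571. The TNFSF15 call was lost with DESeq2, with a pseudocount of 0.1, and without any 1 of the 4 libraries at 0 h (adjusted p = 0.0766 to 0.156).

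TNFSF10 at 0 h had 22.5 and 30.3 normalized reads in control cells and 67.0 and 67.2 in mutp53-depleted cells, a rise of 1.33 on the log2 scale (SE 0.26, n = 2, adjusted p = 0.000343). The 51 tested genes around TNFSF10 on chromosome 3, itself included, had a median log2 fold change of 0.74 at 0 h and 0.71 at 16 h. With that median removed, the change of TNFSF10 at 0 h was 0.59 and no longer called (adjusted p = 0.107). The medians around the chromosome 6 ligands lay between -0.09 and 0.03, and those around TNFSF9 were -0.19 at 0 h and -0.29 at 16 h.

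LTA and LTB were called higher at 0 h on very few reads. LTA had 1 read in control cells against 11 in mutp53-depleted cells, 10 of them in replicate A, with a log2 fold change of 1.70 (SE 0.60, n = 2, adjusted p = 0.0239) and a pooled ratio of 10.1 (interval 1.47 to 434). That call was lost without control 0 h replicate B (adjusted p = 0.146), without mutp53-depleted 0 h replicate A (adjusted p = 0.323), with only the 2 groups compared, with a pseudocount of 5 and with DESeq2. LTB had 6 reads against 13, with a log2 fold change of 1.27 (SE 0.52, adjusted p = 0.0482) and a pooled ratio of 1.99 whose interval, 0.705 to 6.38, spans 1. The LTB call was made in only 6 of 19 alternatives and its log2 value was 0.06 without control 0 h replicate B, so no difference of LTB at 0 h was detectable beyond the counting error. TNF had 1 read against 3 (log2 0.84, 95% interval -0.10 to 1.78, adjusted p = 0.125).

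At 16 h of TNF-α the direction for TNFSF10 was the opposite. LTB, TNF, TNFSF9 and TNFSF10 were called lower in mutp53-depleted cells, 4 of 8 ligands, and 0 were called higher, also at an unadjusted p under 0.05 and with edgeR and DESeq2. Of all genes tested, 10.2% were called lower and 5.03% higher. The ligands had a median log2 fold change of -1.42 and all genes tested one of -0.01.

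LTB at 16 h had 2791 and 2374 normalized reads in control cells and 151 and 92.6 in mutp53-depleted cells. The level was 20.6 times higher in control cells by pooled reads, and lower in mutp53-depleted cells by 4.43 on the log2 scale (SE 0.52, n = 2, adjusted p = 1.14e-06), the 21st lowest of the 14800 genes. TNF had 152 and 124 against 41.9 and 29.6 normalized reads, a log2 fold change of -1.93 (SE 0.45, n = 2, adjusted p = 0.00145). The TNF call was lost with a pseudocount of 0.1 only (adjusted p = 0.0649), of 19 alternatives. For LTA the values were 46.4 and 22.8 against 34.4 and 19.8, so the groups overlapped. Its log2 fold change was -0.31 (95% interval -1.57 to 0.95, adjusted p = 0.694).

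TNFSF9 at 16 h had 59.9 and 72.6 normalized reads in control cells and 23.5 and 24.7 in mutp53-depleted cells, lower by 1.42 on the log2 scale (SE 0.25, n = 2, adjusted p = 9.4e-05). TNFSF10 had 50.3 and 56.9 against 20.1 and 18.5, also lower by 1.42 (SE 0.26, n = 2, adjusted p = 0.000176). Neither pair of groups overlapped. With the regional median removed, TNFSF10 was lower by 2.14 on the log2 scale. The LTB, TNFSF9 and TNFSF10 calls at 16 h held in all 19 alternatives. TNFSF15 had 8.70 and 1.42 against 1.68 and 0 normalized reads (log2 -1.57, 95% interval -3.23 to 0.10, adjusted p = 0.109).

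**Figure D3:**
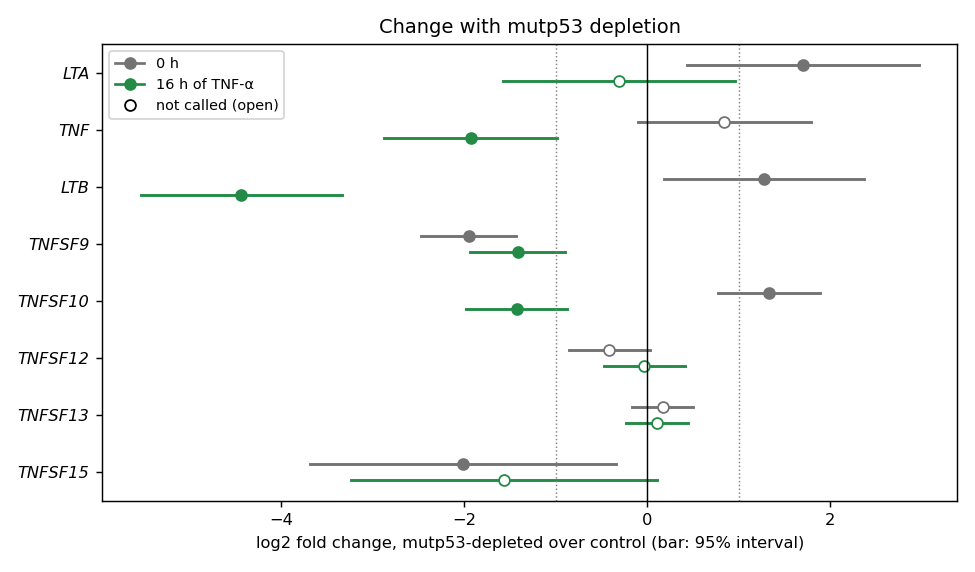
Log2 fold change of mutp53-depleted over control cells for the 8 ligands tested, at 0 h and at 16 h of TNF-α, with 95% intervals from limma, filled points for called genes and dotted lines at the 2-fold threshold. TNFSF9 lies to the left of 0 at both times, at -1.95 and -1.42, while TNFSF10 goes from 1.33 to -1.42 and LTB lies at -4.43 at 16 h.

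TNFSF12, TNFSF13 and TNFSF14 complete the 9. TNFSF12 encodes TWEAK, the ligand of Fn14, and TNFSF13 encodes APRIL, a survival factor for plasma cells. TNFSF12 had between 50.3 and 72.7 normalized reads and TNFSF13 between 93.9 and 133 across the 8 libraries. Neither gene was called in any of the 5 contrasts or under any alternative. The 95% intervals of the TNF-α response in control cells were -0.77 to 0.11 for TNFSF12 and -0.05 to 0.62 for TNFSF13 on the log2 scale. These genes share exons with a readthrough transcript, TNFSF12-TNFSF13, listed at 85.6 to 117 normalized reads, so their values cannot be fully separated. TNFSF14, which encodes LIGHT, had no read in 5 libraries, 1 read in control 16 h B and mutp53-depleted 16 h A, and 4 reads in mutp53-depleted 16 h B, and was not tested.

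Set per kilobase of listed length, the order of the ligands changed from group to group. Control cells at 0 h had TNFSF9 first, at 60.7 ± 12.3 normalized reads per kilobase (SD, n = 2), then TNFSF12 at 44.0 ± 1.33 and TNFSF13 at 42.3 ± 1.26, whose libraries overlapped, and TNFSF10 at 13.6 ± 2.83. The other 5 ligands averaged 2.45 or less there. In control cells at 16 h LTB was at 2911 ± 332, TNF at 84.8 ± 12.2, TNFSF13 at 51.6 ± 2.94 and TNFSF9 at 39.9 ± 5.38, with no overlap between neighbours down to TNFSF9. At 0 h LTB had been among the lowest, and its libraries there overlapped those of TNFSF15.

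Mutp53-depleted cells at 0 h had TNFSF13 first, at 47.6 ± 4.09, followed by TNFSF10 at 34.5 ± 0.0654 and TNFSF12 at 32.9 ± 2.61, of which the latter pair overlapped, and TNFSF9 at 15.1 ± 0.332. At 16 h LTB led with 137 ± 46.5, ahead of TNFSF13 at 55.8 ± 4.24, TNFSF12 at 34.1 ± 1.36 and TNF at 22.0 ± 5.36, and the libraries of TNF overlapped those of LTA (18.6 ± 7.11), as those of LTA overlapped those of TNFSF9 (14.5 ± 0.515). TNFSF10 followed at 9.93 ± 0.585, below all of these. In normalized reads with no length in them TNFSF13 came first at 16 h, with a mean of 126.5 against 121.7 for LTB, and the libraries of these genes overlapped.

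Ligand genes of the family other than these 9 were mostly silent. TNFSF4, CD40LG, TNFSF8, TNFSF11, TNFSF13B and TNFSF18 had at most 1.93 normalized reads in any library, and 3 of 9 were tested. CD70, which encodes the ligand of the lymphocyte receptor CD27, had 55.9 and 62.1 normalized reads at 0 h and 216 and 154 at 16 h in control cells, and 18.1 and 28.8 at 0 h and 57.9 and 59.2 at 16 h in mutp53-depleted cells. It rose with TNF-α by 1.61 (SE 0.24, adjusted p = 5.78e-05) and 1.32 (SE 0.24, adjusted p = 0.000472) on the log2 scale. CD70 was called lower in mutp53-depleted cells at both times (log2 -1.33 and -1.62), and its interaction of -0.29 (95% interval -1.01 to 0.43, adjusted p = 0.786) was not called. CD70 therefore shared the lower level of TNFSF9, next to it on chromosome 19, and rose with TNF-α, which TNFSF9 was not called to do.

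FASLG, which encodes Fas ligand, had 19.6 and 22.7 normalized reads at 0 h and 21.3 and 28.5 at 16 h in control cells, and 9.38 and 8.23, then 5.03 and 3.70, in mutp53-depleted cells. FASLG was called lower with depletion at 0 h (log2 -1.17, adjusted p = 0.0206) and at 16 h (log2 -2.27, adjusted p = 0.000125), and was not called with TNF-α. EDA, which encodes ectodysplasin, was not called in any contrast.

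Receptors that bind the 9 ligands were listed as 16 genes, of which 13 were tested. With TNF-α, 3 rose in control cells against 2 in mutp53-depleted cells, and none was called lower by limma, edgeR or DESeq2, although at an unadjusted p under 0.05 there was 1 lower in control cells (0 in mutp53-depleted cells). Of all genes tested, 2.97% were called higher and 4.27% lower in control cells, against 1.86% and 4.5%. The median log2 fold changes were 0.42 and 0.38. TNFRSF9, which encodes 4-1BB, had 2.90 and 16.7 normalized reads at 0 h and 939 and 751 at 16 h in control cells, and 18.8 and 8.23, then 464 and 394, in mutp53-depleted cells. Its log2 rise was 6.66 (SE 0.45, adjusted p = 2.31e-09) and 4.99 (SE 0.45, adjusted p = 1.53e-07). The gene of this receptor thus rose in both lines where that of its ligand, TNFSF9, was not called higher.

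TNFRSF6B encodes a secreted decoy receptor for LIGHT, TL1A and Fas ligand. It had 152 and 179 normalized reads at 0 h and 3074 and 2993 at 16 h in control cells, and 53.6 and 45.3, then 242 and 222, in mutp53-depleted cells. The log2 rise was 4.19 in control cells (SE 0.12, adjusted p = 2.64e-14) and 2.21 in mutp53-depleted cells (SE 0.12, adjusted p = 1.87e-10), and the interaction was -1.98 (SE 0.17, adjusted p = 2.33e-06). TNFRSF14, the receptor of LIGHT, rose 1.00 on the log2 scale in control cells (adjusted p = 2.52e-05), at the fold threshold itself. In mutp53-depleted cells it went from 69.0 and 65.8 normalized reads at 0 h to 126 and 125 at 16 h. That rise was not called, and neither was the interaction of TNFRSF14, so the lines were not shown to differ in its response.

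With depletion, 3 receptors were called lower at 0 h and 4 at 16 h, and none higher by limma, edgeR or DESeq2, with 2 higher at each time at an unadjusted p under 0.05. The shares of all genes tested were 9.55% and 10.2% for lower calls and 5.89% and 5.03% for higher calls. TNFRSF14, TNFRSF6B and TNFRSF25, the receptor of TL1A, were lower at both times, and TNFRSF11B, which encodes osteoprotegerin, a soluble receptor of TRAIL, was lower at 16 h. At 16 h their log2 fold changes were -1.35 for TNFRSF14, -3.70 for TNFRSF6B, -1.30 for TNFRSF25 and -1.81 for TNFRSF11B. The 51 genes around TNFRSF6B had medians of -0.63 at 0 h and -0.55 at 16 h. Around TNFRSF14 the medians were -0.38 and -0.26, around TNFRSF25 -0.18 and -0.16, and around TNFRSF11B 0.16 and 0.12. In the interaction TNFRSF12A, which encodes Fn14, was called higher (0.54, adjusted p = 0.0264), and TNFRSF6B and TNFRSF11B (-1.02, adjusted p = 0.0443) were called lower. DESeq2 called 1 of these 2 lower, TNFRSF6B, and the TNFRSF11B call was lost there. The interaction shares of all genes tested were 0.655% higher and 2.21% lower.

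The receptors of TNF-α and of the lymphotoxins were picked out after their values were seen. TNFRSF1A, the main TNF-α receptor, had between 1111 and 1661 normalized reads in the 8 libraries, and its response to TNF-α was -0.02 in control cells (95% interval -0.20 to 0.17) and -0.08 in mutp53-depleted cells (-0.26 to 0.11). TNFRSF1B, the second TNF-α receptor, had between 2190 and 5453, and LTBR, which encodes the lymphotoxin β receptor, between 1118 and 1917. All of them passed the adjusted p with depletion at both times at less than 2-fold, with log2 fold changes of 0.35 and 0.29 for TNFRSF1A, -0.90 and -0.81 for TNFRSF1B and 0.49 and 0.63 for LTBR.

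Genes known to process the ligands were 7, all tested, and none was called with TNF-α in either line by limma, edgeR or DESeq2. At an unadjusted p under 0.05, 2 were higher and 2 lower in control cells, and 2 were higher and 3 lower in mutp53-depleted cells. They include ADAM17, which sheds TNF-α from the membrane. RHBDF1, which encodes a partner of ADAM17, was called lower with depletion at 0 h (log2 -1.14, adjusted p = 5.04e-06) and 16 h (log2 -1.28, adjusted p = 1.25e-06), and SPPL2B, an intramembrane protease, at 0 h (log2 -1.14, adjusted p = 7.34e-07). The 51 genes around RHBDF1 had medians of -0.62 and -0.55. Of 8 genes for proteins that bind AU-rich elements, which are known to control TNF mRNA stability, none was called in any contrast by limma, edgeR or DESeq2. With depletion 5 of them were higher at an unadjusted p under 0.05 at each time, below the fold threshold, and 1 was lower at 0 h (0 at 16 h), and the medians were 0.28 and 0.23 on the log2 scale.

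All 8 NF-κB response genes on the list rose in control cells, with a median log2 fold change of 3.73, and 7 in mutp53-depleted cells, with a median of 2.64. Of all genes tested, 2.97% and 1.86% were called higher. The eighth, NFKB1, rose by less than the fold threshold there (log2 0.88, adjusted p = 1.81e-07). In the interaction 7 of the 8 were called lower and CXCL8 was not (-0.34, 95% interval -2.18 to 1.49, adjusted p = 0.915). The interaction shares of all genes tested were 2.21% lower and 0.655% higher. NFKBIA, the inhibitor that NF-κB induces against itself, had 131 and 114 normalized reads at 0 h and 1808 and 1568 at 16 h in control cells, and 226 and 195, then 1097 and 1053, in mutp53-depleted cells. Its interaction was -1.43 (SE 0.15, adjusted p = 2.61e-05).

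BIRC3, an inhibitor of apoptosis, was higher in mutp53-depleted cells at both times and yet had an interaction of -2.84 (SE 0.28, adjusted p = 1.46e-05). It had 7.98 and 16.7 normalized reads at 0 h and 1371 and 1169 at 16 h in control cells, and 188 and 176, then 2591 and 2541, in mutp53-depleted cells. Its lower fold response thus went with a higher start and a higher end, unlike that of LTB and TNF, whose end level was lower. TNFAIP3, another inhibitor of NF-κB, was also called higher at 0 h (log2 1.32, adjusted p = 0.000887), and RELB, an NF-κB subunit, lower at 16 h (log2 -1.07, adjusted p = 5.18e-07). The genes around RELB were lower with depletion as well, with medians of -0.56 at 0 h and -0.51 at 16 h. The lower level of RELB at 16 h was thus partly shared by its region. The interactions of the remaining members were -1.94 for TNFAIP3, -0.93 for NFKB2, -0.89 for RELB, -0.80 for ICAM1 and -0.46 for NFKB1. NFKB1 had 593 and 612 normalized reads at 0 h and 1550 and 1490 at 16 h in control cells. In mutp53-depleted cells it had 760 and 887, then 1516 and 1501. The lines thus overlapped for NFKB1 at 16 h, and mutp53-depleted cells started higher.

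**Figure D4:**
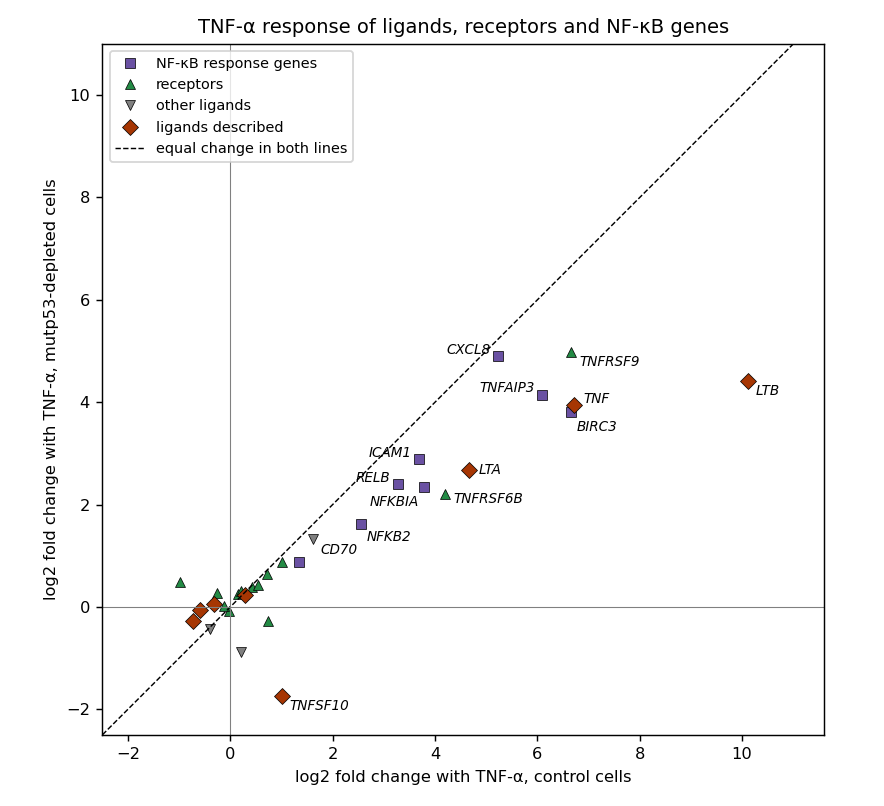
Log2 fold change with 16 h of TNF-α in control cells on the horizontal axis and in mutp53-depleted cells on the vertical axis for the tested genes of 4 lists, with a dashed line of equal change. LTB lies farthest below the line, at 10.12 and 4.41, CD70 and CXCL8 lie near it, and TNFSF10 is the ligand whose values have opposite signs past the threshold.

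The genes around LTA, TNF and LTB on chromosome 6 did not share their response as a group. Within 500 kb of the 3 genes 73 others were listed and 51 tested, and their median log2 fold change was 0.03 with TNF-α in control cells, 0.01 in mutp53-depleted cells, -0.02 with depletion at 0 h and -0.05 at 16 h. With TNF-α in control cells 4 of 51 rose and 3 fell, against 2.97% and 4.27% of all genes tested, so the share that fell was near the background. Those that rose were LST1, CFB, HLA-B and the microRNA gene MIR6891, which lies inside HLA-B on its strand and shares its reads, and those that fell were LY6G6E, LY6G6D and DDAH2. In mutp53-depleted cells HLA-B and LST1 rose, and C6orf15, LY6G6E, LY6G6D and DDAH2 fell, where 1.86% of all genes tested rose and 4.5% fell. HLA-B, MIR6891, C6orf15, LY6G6D and DDAH2 are named because of their calls.

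LST1, a leucocyte gene, begins close to LTB. It had 0 and 0 normalized reads at 0 h and 5.80 and 2.85 at 16 h in control cells, and 0 and 1.37, then 6.71 and 8.64, in mutp53-depleted cells (adjusted p = 0.028 and 0.0207). CFB, which encodes complement factor B, had 0.73 and 1.51 normalized reads at 0 h and 27.1 and 24.2 at 16 h in control cells, against 1.34 and 0, then 2.52 and 0, in mutp53-depleted cells. CFB rose in control cells (log2 3.67, SE 0.76, adjusted p = 0.00128) and was not called in mutp53-depleted cells (0.29, 95% interval -1.30 to 1.89), and its interaction of -3.38 did not pass the test (adjusted p = 0.117). LY6G6E went down, from 21.8 and 24.2 to 7.73 and 7.11 normalized reads in control cells (adjusted p = 0.0195) and from 30.2 and 13.7 to 3.35 and 2.47 in mutp53-depleted cells (adjusted p = 0.000499).

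With depletion, 2 neighbours were called higher and 3 lower at 0 h, and 1 higher and 6 lower at 16 h. For all genes tested the shares were 5.89% higher and 9.55% lower at 0 h, and 5.03% and 10.2% at 16 h. C2, which encodes complement component 2 and lies beside CFB, was lower at both times, with 17.4 and 18.2 normalized reads in control cells against 2.68 and 0 at 0 h, and 34.8 and 39.8 against 1.68 and 1.23 at 16 h. LY6G6D and HSPA1L were the higher genes at 0 h, LY6G5C and ABHD16A were lower with C2, and HSPA1A was the higher gene at 16 h. The lower genes at 16 h were C2 (log2 -3.97), CFB (-3.83), C6orf15 (-2.16), MIR6891 (-1.85), ABHD16A (-1.44) and LY6G6E (-1.11). In the interaction 1 of the 51 was called, MICA, which encodes a ligand of an activating receptor of natural killer cells, and it was higher (0.71, adjusted p = 0.0398), where 0.655% of all genes tested were. Apart from C2, CFB and LY6G6E, the neighbours with a call under depletion or in the interaction are named because of that call.

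**Figure D5:**
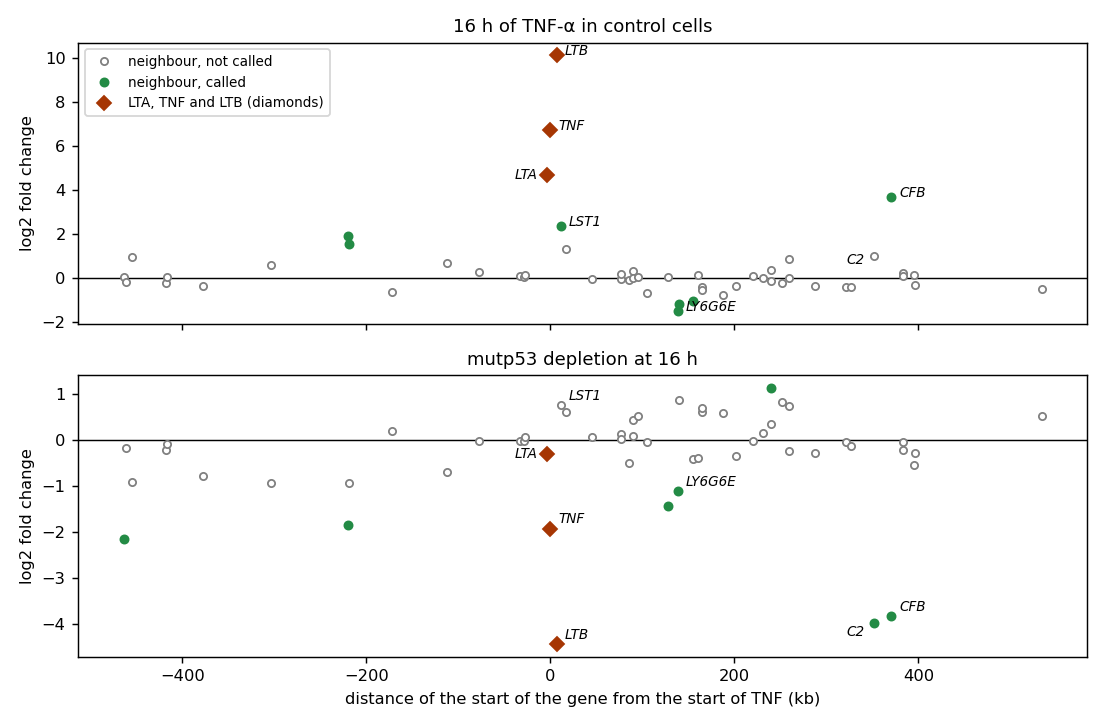
Log2 fold change of LTA, TNF, LTB and the 51 tested neighbours against the distance of their starts from that of TNF in kilobases, for 16 h of TNF-α in control cells (top) and for mutp53 depletion at 16 h (bottom). Most neighbours lie near 0 in the upper panel, with LTB at 10.12, TNF at 6.71 and LTA at 4.67 above them, and in the lower panel LTB, C2 and CFB lie lowest.

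The genes whose pattern over the 8 libraries was most like that of a ligand were found by Pearson r of log2(normalized reads + 1) among 14792 other tested genes, as a description over libraries that share their groups. For LTA they were CXCL1 (r = 0.984), IL34 (0.981) and CD74 (0.981). For TNF they were MAP2K1 (0.997), NFKB2 (0.995) and IL18R1 (0.994), and for LTB they were TMEFF1 (0.990), CAPZA1 (0.987) and IQCK (0.984). For TNFSF10 they were IL12RB2 (0.941), INPP5K (0.938) and SH3D19 (0.930), a looser likeness than that of the chromosome 6 ligands. Pearson r takes no account of the size of a change. Across the libraries CAPZA1 lay between 1333 and 1824 normalized reads and MAP2K1 between 474 and 951, whereas IL18R1 lay between 1.51 and 99.6.

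CXCL1, a neutrophil chemokine, had 1.45 and 0 normalized reads at 0 h and 47.4 and 41.3 at 16 h in control cells, and 6.03 and 1.37, then 25.2 and 21.0, in mutp53-depleted cells. By group means its order of the 4 groups was that of LTA, highest in control cells at 16 h and lowest in control cells at 0 h. The libraries of the lines overlapped at 16 h for LTA and not for CXCL1. At 0 h those of CXCL1 overlapped.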

How the data were processed

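mRNA-seq was carried out on 8 libraries, 2 biological replicates in each of 4 groups. Per the methods, strand-specific poly(A) libraries were sequenced as single-end reads and mapped with STAR. Per the file headers, reads were counted on exons of RefSeq genes with analyzeRepeats, in the orientation of the libraries, and the submitters' processing notes name HOMER. The authors deposited signal values, which are these reads multiplied by 1 factor per library to an equal total. Whole reads were recovered by dividing by the value of 1 read, and 100% of values were whole within 0.1 reads. The header and coordinates of the table give hg19, whereas the methods and labels name hg38. The log2 fold changes, p-values and adjusted p-values that the authors deposited for 4 comparisons were not used. ChIP-seq and GRO-seq data were not analysed here.

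Values were tested with limma 3.58.1 (lmFit, contrasts.fit, eBayes with trend) in R 4.3.3 as log2(value + 1) where a gene's mean reached 2.5. Alternatives were median-ratio rescaling, a pseudocount of 0.1 or 5, the filter raised to 10 or dropped, the replicate letter as a block, only the 2 groups compared, removal of the median of 51 neighbouring genes, leaving out each library, and count tests of the recovered reads with DESeq2 1.42.0 or, after TMM, edgeR 4.0.16 (quasi-likelihood and exact). A check on simulated data used a lower fold threshold than the calls reported here, so it does not test those calls. The members, gene lists, motifs and tests were chosen with earlier results of these data known. Named genes were the 9 ligands, each gene of the fixed lists called in any contrast, up to 4 chromosome 6 neighbours with the largest called changes, and the 3 genes most like each of LTA, TNF, LTB and TNFSF10. Exceptions are marked in the text, and 1 gene that the rule gives is not reported here. Python 3.11.15 was used with scipy 1.17.1, pandas 2.3.3 and numpy 2.4.6.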

Additional observations from a re-analysis of the deposited data

Results flagged for a closer look

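The response to 16 h of TNF-α differed between mutp53-depleted and control cells for 3 ligand genes, by the interaction test of limma over the 4 groups. The difference in log2 response, mutp53-depleted less control, was -5.71 for LTB, -2.77 for TNF and -2.75 for TNFSF10. The calls of LTB and TNFSF10 were made in all 16 alternatives run, and that of TNF in only 6 of them, with an adjusted p of 0.336 by the edgeR quasi-likelihood test and 0.497 by DESeq2. For LTB and TNF both lines rose and the rise was smaller in mutp53-depleted cells. For TNFSF10 control cells rose and mutp53-depleted cells fell.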

How the results depend on the processing

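The number of ligands called kept within 1.5 times for the TNF-α response of control (4) and of mutp53-depleted cells (4), depletion at 16 h (4) and the interaction (3), in all alternatives run for them. Depletion at 0 h called 5 ligands, and 3 with a pseudocount of 5, 3 with only the 2 groups compared, 3 with the median of the neighbouring genes removed and 2 with DESeq2, and 2 to 5 when 1 library was left out, with 2 reached without control 0 h replicate B or without mutp53-depleted 0 h replicate A. The causes were not tested. No call of a single ligand changed sign. With the replicate letter as a block the counts were 4, 4, 5, 4 and 3, and the block changed no call. The letters come from column names only, and deviations of same-lettered libraries correlated between groups at -0.0192 to 0.074, so the letters were not taken to pair the libraries. Without length, 6 of 8 neighbouring pairs in the order of ligand levels in control cells at 16 h did not overlap, against 5 per kilobase. A library left alone in its group was assumed to vary like the others. At 0 h LTA, TNF and LTB rest on 1 to 13 reads per group, which limits their fold changes.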

Other observations

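Around TNFSF9 and TNFSF14 on chromosome 19, 30 genes other than CD70 were listed within 500 kb and 18 tested, a set chosen after the data were seen. Their median log2 fold change was -0.02 with TNF-α in control cells, 0.02 with depletion at 0 h and -0.18 with depletion at 16 h, and 3 were called higher and 1 lower at 0 h, and 1 higher and 3 lower at 16 h. Of all genes tested, 5.89% were called higher and 9.55% lower at 0 h, and 5.03% and 10.2% at 16 h. With depletion TUBB4A, VAV1 and MIR6790 were higher and CRB3 lower at 0 h. At 16 h TUBB4A was higher and GPR108, CRB3 and C3 were lower. With TNF-α in control cells C3 was called higher (log2 6.99) and TUBB4A lower, where 2.97% and 4.27% of all genes tested were. In mutp53-depleted cells C3 rose (log2 5.08) and TUBB4A and VAV1 fell, where 1.86% and 4.5% were. In the interaction C3 alone was called, as lower, where 2.21% of all genes tested were.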
